A study of Zea mays with 32 samples.

Results

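The genes described here are 23 of the 39756 genes (0.0579%) in a table of normalized counts from maize leaf primordia. A gene was taken where all 4 libraries of exactly 1 landrace held a normalized count of at least 50 and the mean of the 4 libraries of each of the other 7 landraces was at most 10. The landrace in which a gene met the limit of 50 is called its own landrace below. The same values chose the genes, so the difference between the own landrace and the others is a description here, with no test. The values of the genes next to the 23 were not used by the choice. The difference between leaves entered it only through the limit of 50, which the libraries of both leaves had to meet.

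RNA was measured in leaf primordia, the young outgrowths of the shoot tip that become leaves, from Zea mays plants that all had a heat treatment at 35 °C. The ninth leaf and the fifth leaf were taken at plastochron stage 4 from 8 native landraces, named Tabloncillo, Nal-tel, Jala, Gordo, Palomero, Mushito, Zapalote and Reventador. Each landrace and leaf gave 2 libraries of poly(A) RNA, so there were 16 groups and 32 libraries, with 54.8 to 121.0 M recovered reads each. No other temperature was analysed here, and the landrace name is the whole genotype given. The labels do not say whether replicates came from separate plants, so p-values measure only the spread between these libraries, which may be technical. Libraries of the ninth leaf and of the fifth leaf were named in separate series, so the leaf and any batch of library preparation cannot be told apart. The files give gene identifiers without names, so no marker of leaf primordia could be looked up.

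A landrace is a variety kept and selected by farmers in one region, and its plants are not genetically uniform. Maize is known for presence and absence variation, in which some plants carry a gene that others lack, and for wide differences between lines in which copies of a gene are transcribed. None of the 23 identifiers has a role attached to it here, because 0 of the table's identifiers matched the RefSeq gene table that was given, and no name, position or sequence is printed for them.

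All 8 landraces had at least 1 such gene. Tabloncillo, Nal-tel and Jala had 4 each, Gordo and Palomero had 3 each, Mushito and Zapalote had 2 each, and Reventador had 1. Between 19442 and 19944 genes had all 4 libraries at 50 or more in a landrace, so the restricted genes were at most 0.0205% of those, in Tabloncillo. The counts depended on the limits. With a lower limit of 25 in place of 50 there were 49 genes, 11 of them in Gordo and 2 in Mushito. With a limit of 20 in place of 10 on the means elsewhere there were 53 genes, 9 of them in Reventador and 3 in Zapalote. With 100 in place of 50 there were 7 genes, with none in Reventador, Mushito or Gordo. Zapalote held between 2 and 3 genes under each of these limits, whereas Reventador ran between 0 and 9. The order of the landraces by number therefore differed between limits.

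**Figure D1:**
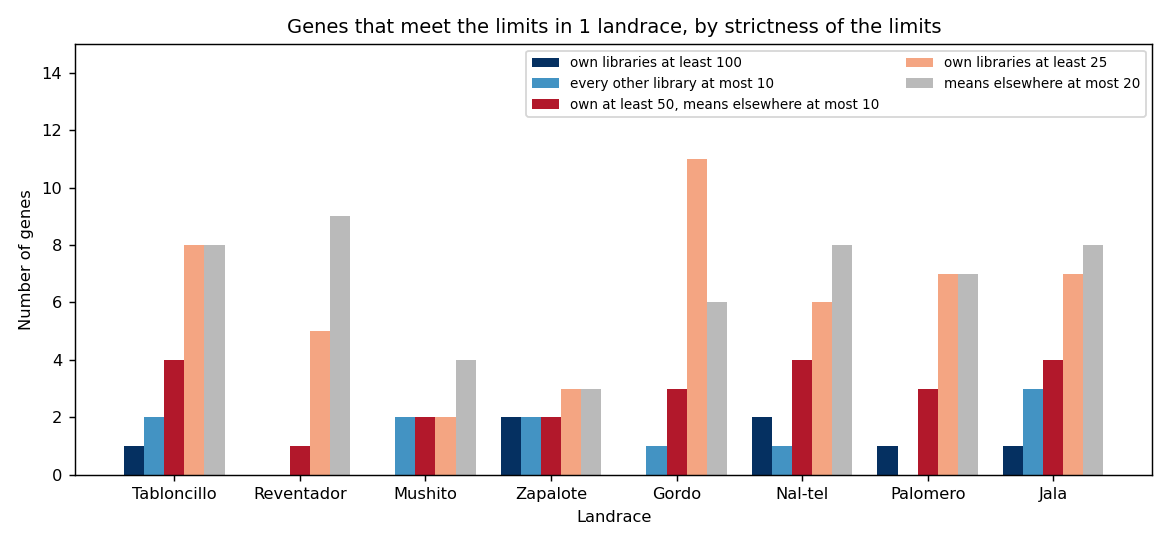
Number of genes that met the limits in each landrace (bars; the y axis is a count of genes), for the limits used here (own libraries at least 50, means elsewhere at most 10) and 4 other settings. Reventador had 1 gene under the limits used and 9 with means elsewhere of at most 20; Zapalote had between 2 and 3 in all 5 settings.

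Near the lower limit, Zm00001eb314740 of Mushito and Zm00001eb142850 of Gordo were just inside, with lowest own libraries of 52.94 and 54.49. Just outside were Zm00001eb041650 of Gordo at 49.47 and Zm00001eb057770 of Tabloncillo at 48.9. Near the limit on means elsewhere, Zm00001eb335980 and Zm00001eb142930, both of Tabloncillo, were just inside with 9.98 in Nal-tel and 9.31 in Gordo. Zm00001eb396210 of Nal-tel and Zm00001eb304820 of Palomero were just outside, with 10.12 in Jala and 10.14 in Nal-tel. Each limit thus ran through closely spaced values.

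The means of the restricted genes over the 4 own libraries ran between 71.02 and 686.3, with a median of 173.3. Of the 23, 2 had an own mean under 100, 12 had one of 100 to 200 and 9 had one of 200 or more. In recovered reads, the own libraries held between 45 and 1136 reads of a gene. Values in the next paragraphs are normalized counts, which are not divided by gene length, so they do not rank the genes by level.

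In Tabloncillo, Zm00001eb292820 had 249.0 and 776.5 in the ninth leaf and 82.54 and 115.1 in the fifth leaf, and it was at 0 in all 28 libraries of the other landraces. Zm00001eb142930 had 420.4 and 207.2 in the ninth leaf and 85.48 and 179.3 in the fifth leaf, with a median of 2.25 and a highest value of 17.4 elsewhere. Both were higher in each ninth leaf library than in either library of the fifth leaf. Zm00001eb335980 had 195.6 and 222.4 in the ninth leaf and 78.61 and 222.1 in the fifth leaf. Its median elsewhere was 6.76 and its highest value there 20.6, and only 4 of the 28 other libraries were at 0, so a low level was listed in most landraces. Zm00001eb190240 had 187.2 and 134.0 in the ninth leaf and 132.6 and 239.4 in the fifth leaf, with overlapping leaves, and its highest value elsewhere was 9.92.

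The Reventador gene was Zm00001eb036160, with 192.6 and 145.4 in the ninth leaf and 67.7 and 93.86 in the fifth leaf. Both ninth leaf libraries were above both libraries of the fifth leaf, and 20 of the 28 other libraries were at 0, with a highest value of 14.5 in Mushito. Of the Mushito genes, Zm00001eb225300 had 109.7 and 56.96 in the ninth leaf and 69.01 and 176.2 in the fifth leaf. Zm00001eb314740 had 120.6 and 56.96 in the ninth leaf and 52.94 and 53.58 in the fifth leaf. In the second of these, 3 libraries lay just above the limit of 50 and the first ninth leaf library stood above them. Their highest values elsewhere were 8.82 and 5.51, both in replicate 1 of the fifth leaf of Palomero.

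Zapalote's genes were nearly empty elsewhere. Zm00001eb389410 had 150.3 and 275.3 in the ninth leaf and 603.1 and 353.7 in the fifth leaf, and both libraries of the fifth leaf were above both of the ninth leaf. Zm00001eb258410 had 162.9 and 103.7 in the ninth leaf and 179.7 and 119.1 in the fifth leaf, with overlapping leaves. Each of the 2 was at 0 in 27 of the 28 other libraries and held 2 reads in the remaining library, from Palomero in both cases.

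Among the Gordo genes, Zm00001eb301180 had 1105 and 798.4 in the ninth leaf and 762.9 and 78.3 in the fifth leaf. Its replicate 1 in the fifth leaf was 9.74 times replicate 2, and this was the widest gap between replicates among the 23 genes. Zm00001eb329260 had 508.9 and 192.9 in the ninth leaf and 77.16 and 226.7 in the fifth leaf, and Zm00001eb142850 had 54.49 and 74.2 in the ninth leaf and 194.5 and 78.3 in the fifth leaf. The highest values elsewhere were 9.72, 15.5 and 12.4, in Zapalote, Reventador and Mushito in that order.

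The Nal-tel genes had no value in the ninth leaf above 224.0. Zm00001eb296540 had 99.94 and 155.1 in the ninth leaf and 341.8 and 606.6 in the fifth leaf, without overlap. It was at 0 in 22 of the 28 other libraries, yet its value of 25.1 in replicate 2 of the fifth leaf of Reventador was the highest single value elsewhere of any of the 23 genes. Zm00001eb018750 had 164.5 and 209.0 in the ninth leaf and 554.9 and 140.1 in the fifth leaf, and Zm00001eb040940 had 187.4 and 97.89 in the ninth leaf and 157.6 and 226.6 in the fifth leaf. Leaves overlapped in both genes, and each was at 0 in 12 of the other libraries. Zm00001eb199380 had the narrowest spread of the Nal-tel genes, with 142.6 and 224.0 in the ninth leaf and 180.9 and 188.3 in the fifth leaf. It was at 0 in 27 of the other libraries and had 2 reads in the remaining library, from Reventador.

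Of the Palomero genes, Zm00001eb115320 had 230.2 and 230.7 in the ninth leaf and 378.1 and 325.6 in the fifth leaf, with both libraries of the fifth leaf higher. Zm00001eb040980 had 82.65 and 195.1 in the ninth leaf and 94.8 and 195.2 in the fifth leaf, so that its replicates differed more than its leaves. Its value of 21.6 in the second ninth leaf library of Zapalote was the second highest single value elsewhere. Zm00001eb261400 had 75.57 and 78.53 in the ninth leaf and 114.6 and 184.6 in the fifth leaf, with both libraries of the fifth leaf higher. It was at 0 in 25 of the other libraries, with 12.3 in replicate 1 of the fifth leaf of Zapalote.

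Jala's Zm00001eb084600 had 575.1 and 133.6 in the ninth leaf and 407.3 and 371.7 in the fifth leaf, and elsewhere it never exceeded 2.2. Zm00001eb200210 had 103.4 and 85.63 in the ninth leaf and 99.29 and 87.99 in the fifth leaf, the narrowest spread over the own libraries among the 23 genes. Zm00001eb146010 had 69.27 and 60.98 in the ninth leaf and 176.0 and 131.1 in the fifth leaf, and Zm00001eb299150 had 127.5 and 58.38 in the ninth leaf and 138.8 and 247.8 in the fifth leaf. In both of these, each library of the fifth leaf was above each of the ninth leaf. All 4 Jala genes were at 0 in at least 21 of the 28 other libraries.

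**Figure D2:**
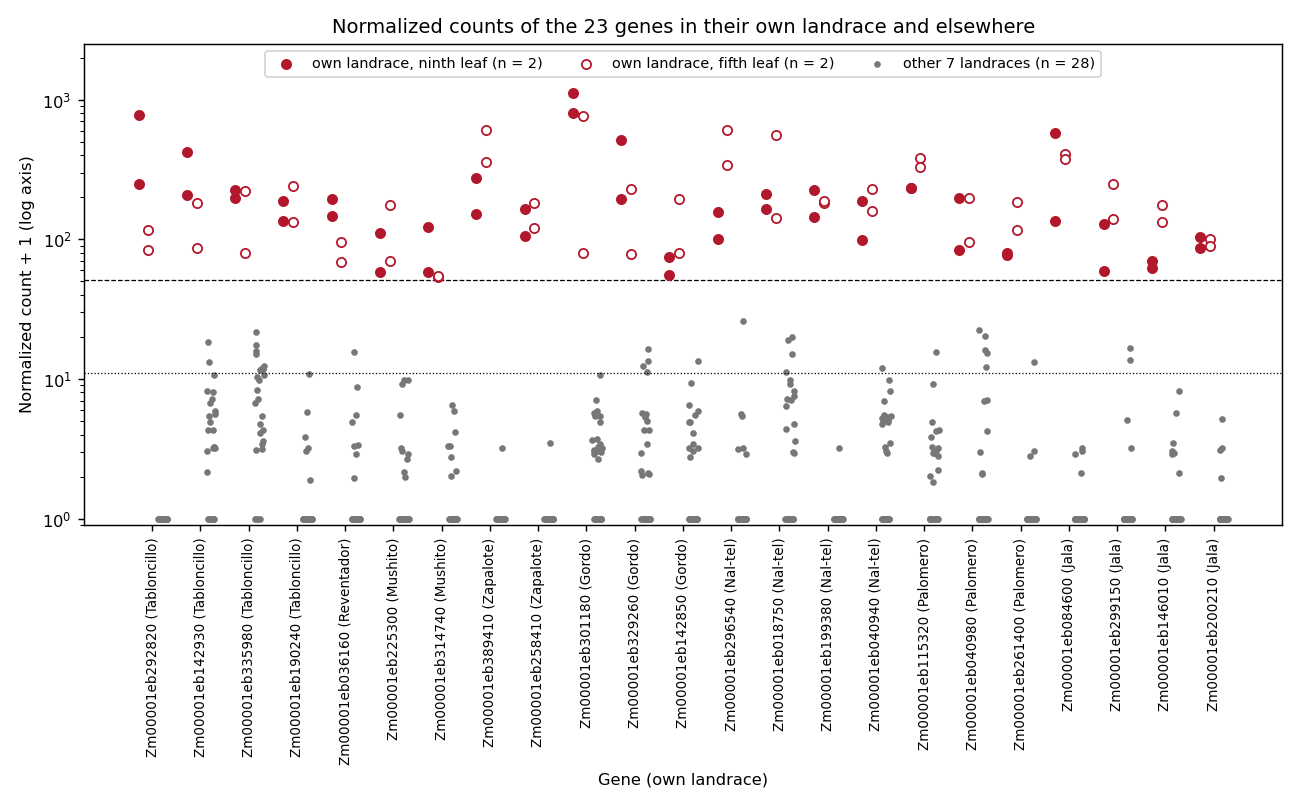
Normalized count + 1 on a log axis for each of the 23 genes (x axis, with the own landrace in brackets): filled red points are own libraries of the ninth leaf, open red points own libraries of the fifth leaf (n = 2 each) and grey points the 28 libraries of the other landraces. The dashed line is the limit of 50 on own libraries and the dotted line the limit of 10 on means elsewhere; grey points reach 25.1 and no red point falls below 52.94.

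The low values elsewhere were mostly zeros. Of the 644 pairs of a gene and a library from another landrace, 433 (67.2%) were at 0 and 534 (82.9%) were at or under a floor of 3 reads. In 16 of the 23 genes the median over the 28 other libraries was 0, and 5 genes were at or under the floor in all 28. Zm00001eb292820 was the gene at 0 in all 28, and its own mean was at least 95.3-fold above the mean of 3.21 that 3 reads in each of those libraries would give. The other 22 genes had at least 1 read in another landrace, so "one landrace" describes these genes by their limits and not by absence elsewhere. Floors cover counting error only, since reads without molecular identifiers are not independent molecules. Of the values of 1 to 20 reads, 76.7% to 87.0% were even by library. Mates of a read pair may therefore have been counted singly, and 3 reads may stand for fewer read pairs.

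In all 23 genes the lowest own library was above the highest library elsewhere, with ratios between 3.73 in Zm00001eb299150 and 68.2 in Zm00001eb389410 among the 22 with a value above 0 elsewhere. The limits fixed most of that separation, so nothing is read from it. For the same contrast, the share of the 28024 genes tested with limma that were called higher in a landrace than in the other 7 (adjusted p under 0.05) was 3.44% for Tabloncillo, 9.01% for Reventador, 3.12% for Mushito, 2.31% for Zapalote, 4.14% for Gordo, 6.11% for Nal-tel, 5.31% for Palomero and 3.92% for Jala. Reventador, with 1 restricted gene, had the highest of these shares.

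Reads elsewhere were spread over libraries and came from no landrace alone. A library held reads of between 2 and 11 of the genes restricted to other landraces, and their summed normalized count was between 5.19 and 71.09. The landrace with the next highest mean was Palomero for 6 genes, Mushito for 4, Gordo, Nal-tel and Reventador for 3 each, Zapalote for 2 and Jala for 1. Replicate 1 of the fifth leaf of Palomero held the highest value elsewhere for 5 of the 20 genes that are not its own, and these came from 4 landraces. That library also had the most genes above 0, at 30585 against 28447 to 30105 in the other libraries; its part in the result was not tested. Replicate 2 of the fifth leaf of Reventador held the highest value for 3 genes, all of Nal-tel.

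**Figure D3:**
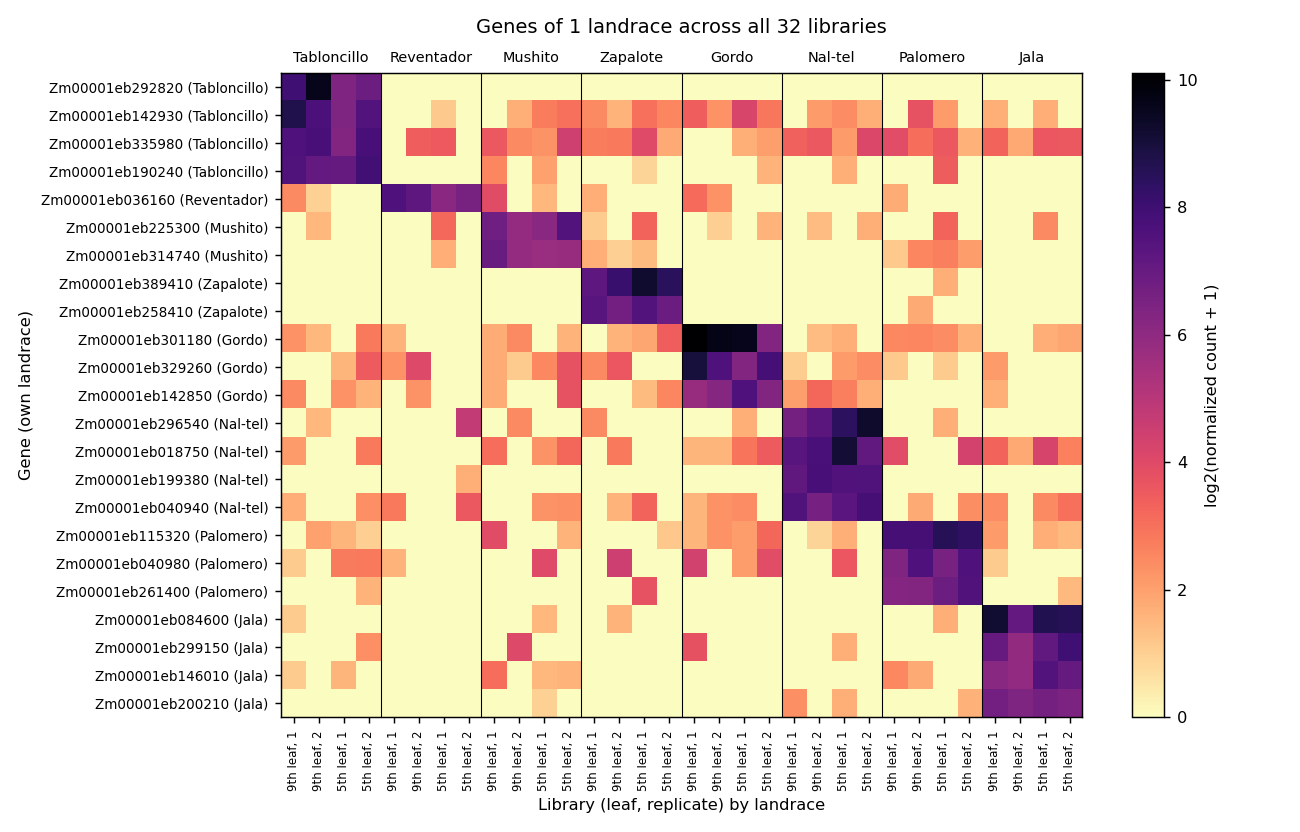
Each row is 1 of the 23 genes and each column 1 of the 32 libraries, in blocks by landrace with the ninth leaf left of the fifth leaf; colour is log2(normalized count + 1). The dark blocks on the diagonal are the own landraces that chose the rows, and off the diagonal 67.2% of cells are at 0.

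Replicates of the restricted genes often lay far apart. Over the 46 pairs of replicates in own groups, the higher library exceeded the lower by a median of 1.59 times, and in 15 pairs (32.6%) by 2 times or more. Over all genes with own libraries at 50 or more and means up to that of the highest of the 23, the medians were 1.24 to 1.35 by landrace, and between 7.78% and 17.2% of pairs reached 2 times. These comparison genes are not matched one by one to the 23, and no test was made of this difference. The first replicate was the higher in 22 of the 46 pairs.

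Whether the genes differed between leaves within their own landrace was asked with limma on log2(normalized count + 1), fitted over all 32 libraries and adjusted over all genes tested in each landrace. The mean of the ninth leaf was the higher in 8 genes and that of the fifth leaf in 15. The libraries of the ninth leaf and of the fifth leaf did not overlap in 12 genes, of which 5 were higher in the ninth leaf and 7 in the fifth leaf. The share of all tested genes without such overlap was not counted, so nothing is read from the 12. None of the 23 passed an adjusted p of 0.05 in limma, and 1 had an unadjusted p under 0.05. The quasi-likelihood test of edgeR on the recovered reads also called 0, with 1 unadjusted, and DESeq2 called 0, with 0 unadjusted. With a pseudocount of 10 in place of 1, limma called 1 of the 23, and 11 had an unadjusted p under 0.05. A pseudocount of 10 shrinks the scatter among the low values elsewhere, by which the 23 were chosen. The share of all tested genes at that pseudocount is not given here, so nothing is read from the 11. Of all 28024 genes tested with the pseudocount of 1, between 2305 (Nal-tel) and 5329 (Mushito) had an unadjusted p under 0.05 in limma. Over all genes tested, limma called 0.203% in Tabloncillo, 0.485% in Reventador, 2.14% in Mushito, 0.289% in Zapalote, 0.182% in Gordo, 0.0178% in Nal-tel, 0.956% in Palomero and 0.111% in Jala. With shares this low, a count of 0 among 23 does not set the genes apart.

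The leaf differences came with wide errors. The median absolute difference was 0.65 on the log2 scale, 9 genes differed by 1 or more, and standard errors ran between 0.68 and 1.5. The smallest p belonged to Zm00001eb292820 of Tabloncillo, whose mean was 512.7 ± 373 in the ninth leaf and 98.83 ± 23 in the fifth leaf (SD, n = 2 each). Its log2 difference was 2.16 with a standard error of 0.68 (limma, adjusted p = 0.128). Without replicate 2 of the ninth leaf of Tabloncillo the log2 difference was 1.34, and without replicate 1 of the ninth leaf it was 2.98. Its call depended on the pseudocount and on the filter: the limma adjusted p was 0.0138 with a pseudocount of 10 and 0.0257 with no filter on low genes. Zm00001eb301180 of Gordo had 951.9 ± 217 in the ninth leaf and 420.6 ± 484 in the fifth leaf (SD, n = 2 each), a log2 difference of 1.93 with a standard error of 1.09 (limma, adjusted p = 0.601). Without replicate 2 of the fifth leaf of Gordo its log2 difference was 0.3, and without replicate 1 it was 3.57, so 1 library decided the value.

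At the other end, Zm00001eb296540 of Nal-tel had the lowest difference, with 127.5 ± 39.0 in the ninth leaf and 474.2 ± 187 in the fifth leaf (SD, n = 2 each) and a log2 difference of -1.86 with a standard error of 1.19 (limma, adjusted p = 0.714). By landrace, the median log2 difference was 0.95 over the Tabloncillo genes and 1.24 over the Gordo genes, against -0.53 in Nal-tel, -0.6 in Palomero, -0.67 in Zapalote and -0.79 in Jala. The Mushito genes had a median of 0.08, and the Reventador gene had 1.06. All 4 Nal-tel genes and all 3 Palomero genes had negative differences, none past the threshold. The median over all genes tested lay between -0.01 and 0.01 in every landrace. The spread that limma shares over groups includes the libraries elsewhere, where these genes sit at a few reads or 0. Scatter among a few reads widens the standard errors, and libraries all at 0 narrow them. The lowest standard error, 0.68, belonged to Zm00001eb292820, at 0 in all 28 libraries elsewhere. Its small p thus rests in part on the low values elsewhere by which it was chosen. With the 4 own libraries alone, 0 genes were called and 3 had an unadjusted p under 0.05 in limma. The lowest adjusted p in that limma fit was 0.303, for Zm00001eb115320.

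**Figure D4:**
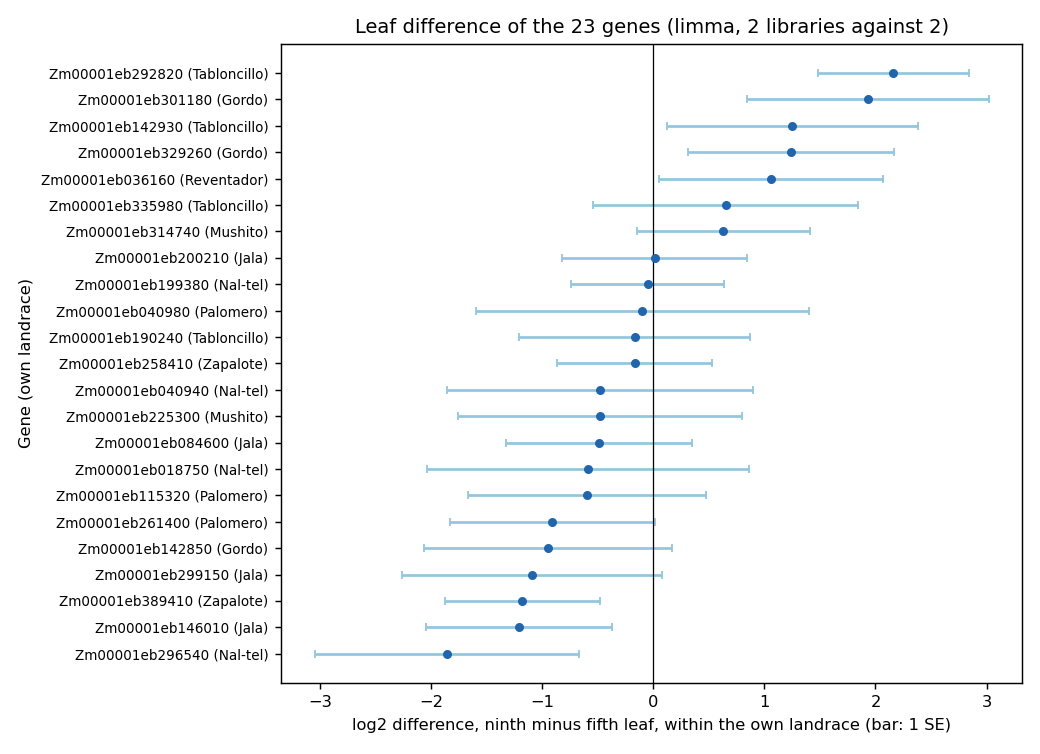
Difference between the ninth and the fifth leaf in the own landrace for each of the 23 genes (x axis: log2 difference, ninth minus the fifth leaf, from limma; bar: 1 standard error either side; 2 libraries against 2). Values run from -1.86 to 2.16, and none of the 23 passed an adjusted p of 0.05.

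Maize identifiers of this form run in steps of 10, and 90.1% of consecutive identifiers in the table are the next number, so a neighbour in identifier order may skip identifiers not analysed here. Positions were not given, and distance is counted in table rows sorted by identifier. The 23 genes did not lie together. The median gap between consecutive genes of the 23 was 1004 rows, and no consecutive pair belonged to the same landrace. The closest pair was Zm00001eb040940 of Nal-tel and Zm00001eb040980 of Palomero, 3 rows apart. Next came Zm00001eb142850 of Gordo and Zm00001eb142930 of Tabloncillo, 6 rows apart, and Zm00001eb199380 of Nal-tel and Zm00001eb200210 of Jala, 76 rows apart. In each of these pairs, genes near each other were restricted to different landraces.

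The genes directly before and after each of the 23 were tested for a difference between that landrace and the other 7, with the same limma fit. Of these 46 neighbours, 26 had a mean of at least 5 over all 32 libraries and were tested, and 20 were not. The untested neighbours include 4 at 0 in all 32 libraries, and 6 of the 23 genes had both neighbours under that mean. Limma called 3 of the 26 higher and 0 lower, and the remaining 23 were not called. The median log2 difference over the 26 was 0.0. Of the 26, 8 had an unadjusted p under 0.05 in limma. The share of all tested genes at that unadjusted p is not given here, so nothing is read from the 8. Among all genes tested, the shares called higher are those given above, and the shares called lower were 3.44% for Tabloncillo, 11.5% for Reventador, 2.06% for Mushito, 2.38% for Zapalote, 3.36% for Gordo, 8.16% for Nal-tel, 4.15% for Palomero and 4.3% for Jala.

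Of the called neighbours, 2 were beside Palomero genes, out of 3 tested there, and 1 beside a Zapalote gene, out of 4; such small counts are given beside the shares above and set nothing apart. Zm00001eb115330, the gene after Zm00001eb115320, had 637.6 and 803.7 in the ninth leaf and 981.1 and 1300.0 in the fifth leaf of Palomero, while the other 28 libraries ran from 0 to 78.39 with a median of 2.02. No library elsewhere reached the Palomero values, and the gene missed the limits of the 23 only through Mushito, whose mean was 35.34. Its log2 difference was 7.95 with a standard error of 0.68 (limma, adjusted p = 1.43e-07). On the other side of Zm00001eb115320 lay Zm00001eb115310, with 16.53 and 18.41 in the ninth leaf and 55.12 and 30.76 in the fifth leaf of Palomero and at most 4.67 elsewhere. Its mean over all libraries was under 5, so it was tested only with no filter, where its log2 difference was 4.05 with a standard error of 0.48 (limma, adjusted p = 1.2e-05). Both direct neighbours of Zm00001eb115320 were thus higher in Palomero, Zm00001eb115310 only in the fit without a filter. Zm00001eb115320 itself was chosen for being higher there and adds nothing to this.

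Zm00001eb040990, the gene after Zm00001eb040980, had 275.1 and 703.1 in the ninth leaf and 195.1 and 791.2 in the fifth leaf of Palomero. The other libraries ran from 0 to 327.9 with a median of 3.56, and 3 libraries of Gordo had 327.9, 66.29 and 199.9 while the remaining Gordo library had 1.98. Single libraries of Zapalote (313.3) and Jala (71.47) were high as well. The groups overlapped, and the log2 difference was 6.0 with a standard error of 1.09 (limma, adjusted p = 0.00105). Both Zm00001eb040980 and Zm00001eb040990 had replicate 2 of each leaf at 2 times replicate 1 or more in Palomero. On the other side, Zm00001eb040970 had a mean of 1159 ± 143 in Palomero (SD, n = 4) and of 993.0 ± 137 elsewhere (SD, n = 28), and its log2 difference of 0.23 did not pass (limma, adjusted p = 0.182).

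The third called neighbour was Zm00001eb258420, after the Zapalote gene Zm00001eb258410. It had 134.3 and 154.1 in the ninth leaf and 323.5 and 218.8 in the fifth leaf of Zapalote, while the other libraries ran from 0 to 201.4 with a median of 38.15. The groups overlapped: Mushito, with a mean of 128.3, had libraries of 201.4 and 142.2, and Palomero had 163.1 in replicate 1 of the fifth leaf. The log2 difference was 2.65 with a standard error of 0.53 (limma, adjusted p = 0.00503), and with a pseudocount of 0.1 the call was lost (limma, adjusted p = 0.053). Without a filter, limma also called Zm00001eb225290, before the Mushito gene Zm00001eb225300, with a mean of 17.17 in Mushito and 1.98 elsewhere and an adjusted p of 0.000946.

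The remaining tested neighbours included genes expressed at similar levels in every landrace. Of the 46, 18 had a mean of 100 or more over all libraries, and 3 of the 23 genes had both neighbours at that level. Zm00001eb329250 and Zm00001eb329270, on either side of the Gordo gene Zm00001eb329260, had means of 17900 ± 4280 and 11360 ± 693 in Gordo (SD, n = 4) and 17760 ± 4290 and 11250 ± 1100 elsewhere (SD, n = 28). Their log2 differences were both 0.02 (limma, adjusted p = 0.948 and 0.912). These 2 and Zm00001eb040970 were picked for naming after their values were seen.

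**Figure D5:**
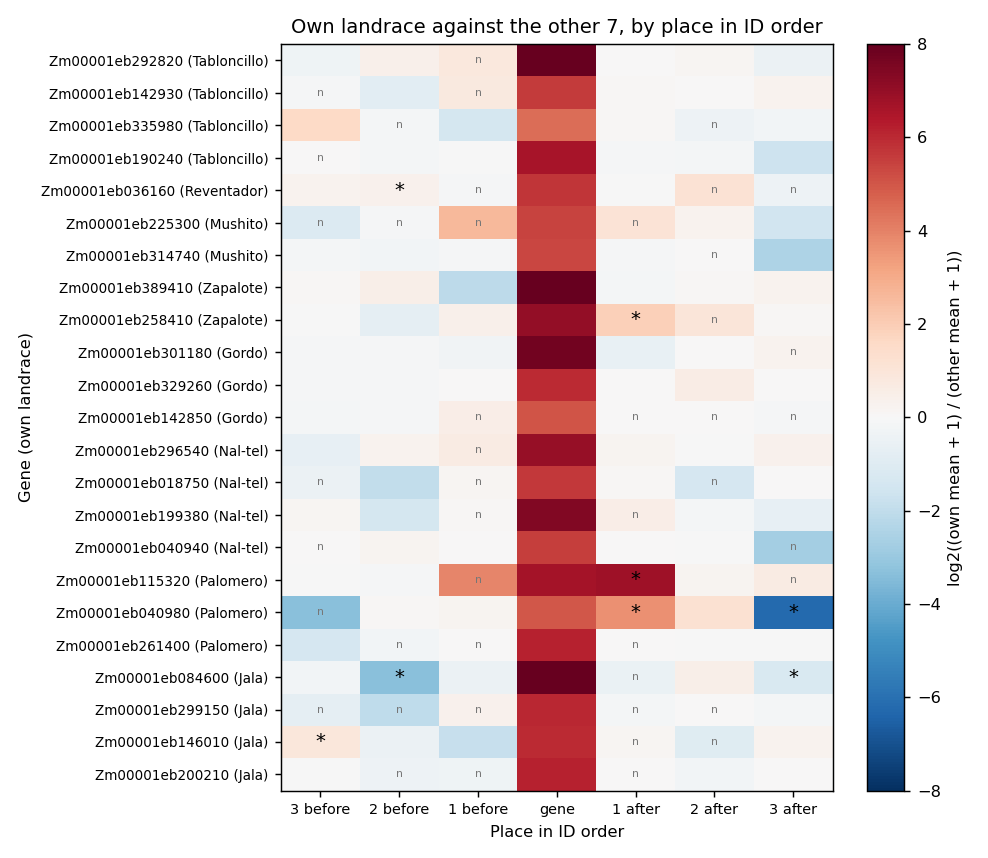
Colour gives log2((own mean + 1) / (mean over the other 7 landraces + 1)) for each of the 23 genes (middle column) and for the 3 table rows before and after it in identifier order, with the own landrace set against the other 7; the scale ends at 8 and values beyond it take the end colour. Asterisks mark neighbours called by limma (adjusted p under 0.05) and n marks neighbours with a mean under 5, which were not tested; the middle column was chosen by the values it shows, and 3 of the 26 tested direct neighbours are called higher.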

How the data were processed

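The authors deposited 1 table of normalized counts (a signal per gene, not divided by length) for 39756 genes in 32 libraries. The submitters' processing notes name STAR, featureCounts and DESeq2; versions, genome build and annotation are not given in the sources used here. In each library all values (100% at a tolerance of 0.01) were whole multiples of 1 step, and dividing by it recovered the reads. Totals were 54.8 to 121.0 M (median 65.95 M). Of the low values (1 to 20 reads), 76.7% to 87.0% were even.

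The 23 genes and all lists were chosen with earlier results of these data known. The main test was limma 3.58.1 (eBayes with trend, R 4.3.3) on log2(normalized count + 1). It covered 28024 genes, those averaging at least 5 over all libraries, with 16 group means, 16 residual degrees of freedom and Benjamini-Hochberg adjustment over each contrast. All 23 genes pass that filter, and all but Zm00001eb335980 do so only through their own landrace. A fold change on this scale understates that of low genes. Alternatives were other limits and pseudocounts (0.1 and 10), filters, quantile normalization, a replicate block, each library left out, and edgeR 4.0.16 and DESeq2 1.42.0 on the recovered reads. The procedure was tested on simulated data, in which changed genes were expressed in all libraries and every gene had the same dispersion. Genes near 0 outside 1 landrace were not simulated, so that test does not cover the 23. Named genes were the 2 highest per landrace, those with the smallest leaf p, those nearest the limits, those highest elsewhere, the neighbours that changed most, and those with the widest and narrowest own spread; the other genes of the 23 were named after their values were seen.

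Replicate numbers showed no clear pairing of the samples: the correlation of deviations between leaves of the same number ran between -0.161 and 0.101 over the landraces. Such correlations cannot show whether libraries of the same number shared a plant or a batch.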

Additional observations from a re-analysis of the deposited data

Results flagged for a closer look

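In 3 of the 23 genes, 1 of the 4 own libraries stood apart from the other 3 by more than Dixon's critical share of the whole range (gap over range). The usual chance rate of about 1 in 20 does not apply, because the limit of 50 bounds the low side and the 4 libraries are of 2 leaves. Zm00001eb314740 of Mushito had 120.6 in replicate 1 of the ninth leaf, against 52.94 to 56.96 in the other 3, a ratio of 0.941. Zm00001eb018750 of Nal-tel had 554.9 in replicate 1 of the fifth leaf, against 140.1 to 209.0 in the other 3, a ratio of 0.834. Zm00001eb142850 of Gordo had 194.5 in replicate 1 of the fifth leaf, against 54.49 to 78.3 in the other 3, a ratio of 0.83.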

How the results depend on the processing

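The number of genes moved with the limits: 49 with own libraries of at least 25, 7 with at least 100, 53 with means elsewhere of at most 20, and 11 where each of the 28 other libraries had to be at most 10. It was 17 with means elsewhere of at most 5 and 22 with TMM scaling. With 1 library left out it ran between 22 and 27. A landrace's own count moved by over 1.5 times without 1 of its libraries in these cases: Jala had 8, Palomero 5 and Mushito 4 without replicate 1 of the fifth leaf. Gordo had 5 without replicate 1 of either leaf. Zapalote had 4 without replicate 2 of the ninth leaf. Reventador had 3 without its replicate 1 of the fifth leaf and 2 without any other of its libraries, as also without Gordo's replicate 1 of the ninth or replicate 2 of the fifth leaf or Mushito's replicate 2 of the ninth leaf. The limit on own libraries is easier to meet with 3 libraries than with 4.

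Leaf calls among the 23 were 0, and 1 with a pseudocount of 10 or with no filter, which was Zm00001eb292820 in both; with 1 library left out they stayed at 0 to 0. Neighbours called higher were 3, against 5 with no filter (42 tested), 5 up to 3 rows away (93 tested) and 1 beside genes with every other library at most 10 (13 tested); with 1 library left out they ran between 3 and 4. With a pseudocount of 0.1, Zm00001eb258420 had a log2 difference of 2.93 and lost its call (limma, adjusted p = 0.053). With the replicate number as a block within landraces, leaf calls were 0 and neighbours called higher 3. A crossed block, added after seeing the data because Mushito (-0.161) and Gordo (-0.105) had negative correlations, also gave 0 and 3. DESeq2 put 9 of the 23 at its upper bound of dispersion, with a standard error of 8.16, and gave no adjusted p for 5. The leaf differences of Zm00001eb292820 and Zm00001eb301180 kept their direction under the alternatives run for them. So did the landrace differences of the direct neighbours called higher in the main fit. The direction of the other differences was not followed.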

Other observations

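Further out in identifier order, limma called 2 neighbours higher and 3 lower among the genes 2 or 3 rows from the 23. Of these genes, 33 were tested at 2 rows and 34 at 3 rows. Over all genes tested, 2.31% to 9.01% were called higher and 2.06% to 11.5% lower by landrace, so these counts set nothing apart. With no filter on low genes, limma called 1 of the same genes higher and 2 lower. Beside the Palomero gene Zm00001eb040980, Zm00001eb041010 lay 3 rows after it and had a mean of 2.76 ± 5.51 in Palomero (SD, n = 4) and 284.7 ± 513 elsewhere (SD, n = 28), with a log2 difference of -3.9 (limma, adjusted p = 0.0161). Its highest mean was 1268, in Jala, and its Nal-tel libraries ran from 120.4 to 529.4. Low values were not particular to Palomero: Reventador libraries ran from 0 to 2.18 and Gordo libraries from 0 to 5.84. Zm00001eb041010 lay 2 rows from Zm00001eb040990, which was called higher in Palomero. Beside the Jala gene Zm00001eb084600, Zm00001eb084580 had 1.1 ± 2.2 in Jala and 20.64 ± 17.6 elsewhere (log2 difference -3.17, limma adjusted p = 0.00726), and Zm00001eb084630 had 63.03 ± 22.3 in Jala and 146.6 ± 102 elsewhere (log2 difference -1.02, limma adjusted p = 0.047, and 0.0589 with no filter). The 2 higher were Zm00001eb145980, near a Jala gene, with 519.7 ± 62.2 in Jala and 277.5 ± 126 elsewhere (log2 difference 1.09, limma adjusted p = 0.045, and 0.0563 with no filter), and Zm00001eb036140, near the Reventador gene, with 8452 ± 1290 in Reventador and 6636 ± 1010 elsewhere (log2 difference 0.35, limma adjusted p = 0.0121). In all 5 the libraries of the own landrace overlapped with those elsewhere.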
